A study of Homo sapiens with 6 samples.

Results

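The genes described here are 9 genes of the epithelial tight junction: the claudin genes CLDN1, CLDN3, CLDN4, CLDN7 and CLDN12, the membrane protein genes OCLN, LSR and F11R, and the scaffold gene TJP1. They were chosen by symbol from the 26364 genes of the expression table, with earlier results of these data known. All 9 passed the filter on low values that left 16032 genes for testing. RNA was measured in T47D, a human luminal breast cancer line with epithelial morphology, 48 h after transfection with an siRNA against ELF5 (siELF5, 3 libraries) or with a control siRNA (siNC, 3 libraries). ELF5 belongs to the ETS family of transcription factors and is known for its role in mammary epithelium. Each group received 1 siRNA product in 1 cell line, and nothing in the labels says that the libraries of a group came from separate cultures, so p-values speak only to variation among these 6 libraries, part or all of which may be technical. Because whole cultures were measured, fewer cells with a transcript and less transcript per cell cannot be told apart.

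Tight junctions seal the space between neighbouring epithelial cells near their apical border. Claudins are membrane proteins with 4 spans that form the strands of the junction; the mix of claudins in a cell sets which ions and molecules pass between cells. Occludin (OCLN) shares that membrane topology and is concentrated in the strands, while LSR, the lipolysis stimulated lipoprotein receptor, organises contacts where 3 cells meet. F11R encodes the adhesion molecule JAM-A of the immunoglobulin superfamily, and TJP1 encodes ZO-1, the cytoplasmic scaffold that links strand proteins to actin. In mammary epithelium, tight junctions close the milk space off from the tissue below.

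The members differ in base composition, and this matters for how their values are read. The GC content of the longest annotated transcript was 69.2% for CLDN3, 64.8% for LSR, 59.6% for CLDN7 and 57.5% for CLDN4, against 47.6% for F11R, 44.8% for TJP1, 41.5% for CLDN1, 39.9% for OCLN and 38.1% for CLDN12. The first 90 coding bases of 4 claudins, from GENCODE release 29, are shown because they let the extremes be compared by eye; G and C are in capitals and the rest in lower case.
CLDN3: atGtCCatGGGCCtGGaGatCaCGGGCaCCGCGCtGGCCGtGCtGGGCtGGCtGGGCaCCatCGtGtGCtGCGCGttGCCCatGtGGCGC
CLDN4: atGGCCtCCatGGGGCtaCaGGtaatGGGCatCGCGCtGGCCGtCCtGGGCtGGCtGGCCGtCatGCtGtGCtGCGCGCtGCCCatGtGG
CLDN1: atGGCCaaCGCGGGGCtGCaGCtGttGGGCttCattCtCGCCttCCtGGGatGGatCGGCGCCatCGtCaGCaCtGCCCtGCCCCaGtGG
CLDN12: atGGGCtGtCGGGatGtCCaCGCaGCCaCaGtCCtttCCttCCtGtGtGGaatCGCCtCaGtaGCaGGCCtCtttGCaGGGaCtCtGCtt
These stretches hold 70% GC in CLDN3, 67.8% in CLDN4, 65.6% in CLDN1 and 57.8% in CLDN12, so the starts are closer to each other than the whole transcripts are. Over the whole coding sequence, GC at the third codon position was 94.6% in CLDN3, 86.7% in CLDN4, 63.7% in CLDN1 and 56.3% in CLDN12. CLDN3 also has a short 3′ untranslated region of 390 bases at 66.7% GC, whereas that of CLDN1 has 2576 bases at 35.3% and that of CLDN12 has 2543 bases at 33.0%.

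Knockdown of the target was seen in every library. ELF5 had 3678, 3725 and 3638 normalised reads in siELF5 cells, against 13225, 13149 and 12910 in siNC cells. Each siELF5 library lay at 27.8% to 28.4% of the siNC mean, and the log2 fold change was -1.83 (SE 0.033, limma adjusted p = 3.26e-12). EHF, the related factor named in the study's title, averaged 42476 ± 821 normalised reads in siELF5 cells and 51519 ± 1253 in siNC cells (SD, n = 3 each), a log2 fold change of -0.28 (limma adjusted p = 8.23e-06). Normalised reads are gene counts that the authors divided by a size factor per library; totals were 72433285 to 83680984 reads in siELF5 libraries and 66810743 to 83323288 reads in siNC libraries. The lowest count of any member was 1279 reads, for CLDN3 in siNC replicate 1.

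Most members were higher after ELF5 knockdown. CLDN3 and LSR rose most, CLDN1, CLDN12 and CLDN7 rose by smaller amounts, F11R rose slightly, OCLN fell slightly, and CLDN4 and TJP1 did not pass the test. At a limma adjusted p under 0.05, 7 of 9 members passed, 6 of them higher and 1 lower, while 47.1% of all genes tested passed, 23.8% higher and 23.3% lower. In 7 of 9 members the 3 siELF5 values and the 3 siNC values did not overlap, against 55.9% of all genes. A change of at least 1.5-fold that passed the test was found for CLDN3 and LSR, and for 10.5% of all genes. The median log2 fold change was 0.18 over the members and 0.00 over all genes. In the authors' deposited table, the same 7 members had an adjusted p under 0.05, among 7103 genes called.

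**Figure D1:**
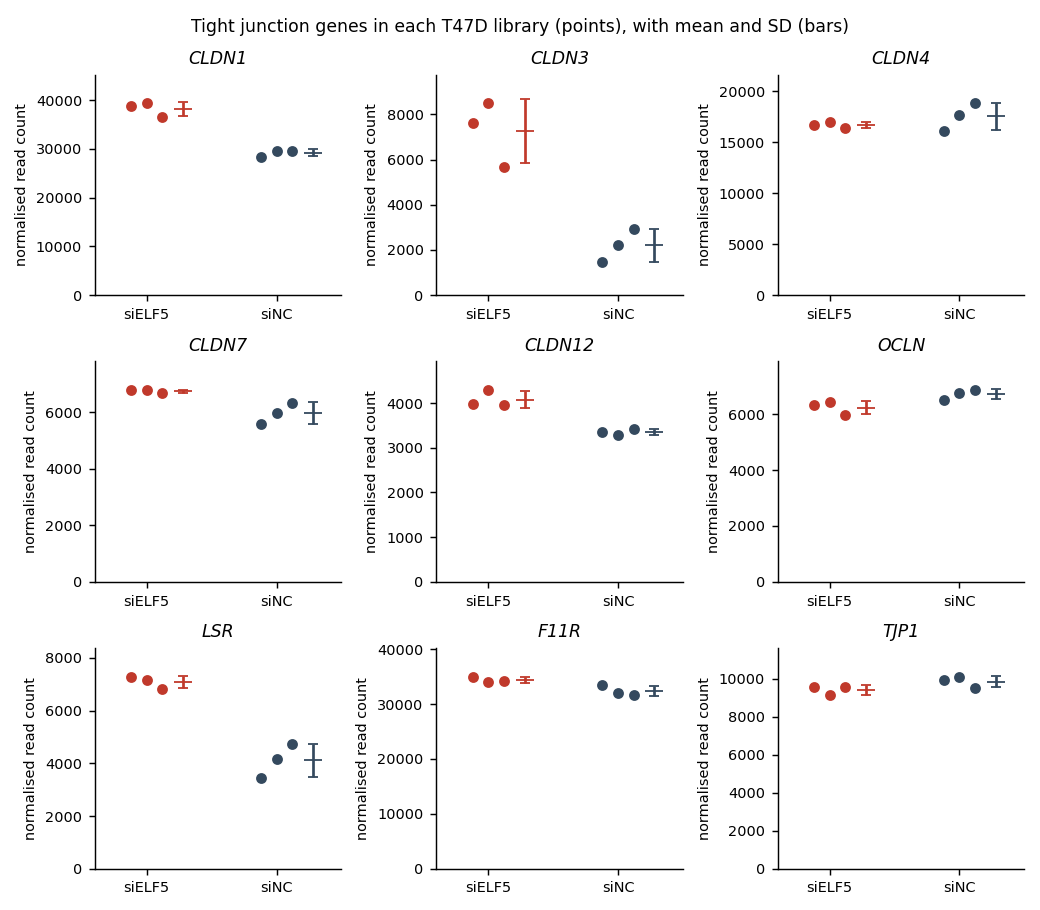
Normalised read count (y axis, linear from 0) of the 9 tight junction genes in each library, with siELF5 in red to the left of siNC in dark blue. Points are libraries, and the bars give the mean and SD of 3 libraries; relative to the level of each gene CLDN3 and LSR are the widest apart, and CLDN4 and TJP1 overlap between the groups.

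CLDN3, a claudin that tightens the barrier, had 7613, 8491 and 5685 normalised reads in siELF5 cells, against 1471, 2214 and 2922 in siNC cells. The lowest siELF5 library was above the highest siNC library, but both groups were spread widely, and siNC replicate 1 was the lowest of all. The means were 7263 ± 1435 in siELF5 cells and 2202 ± 726 in siNC cells (SD, n = 3 each), a ratio of 3.30. The log2 fold change was 1.76 (SE 0.193, limma adjusted p = 1.18e-05). It ranged over 1.49 to 1.99 when each library was left out in turn.

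CLDN1, which is required for the barrier of the epidermis in mice, had the highest reads of the claudins. It had 38775, 39326 and 36598 normalised reads in siELF5 cells, against 28336, 29623 and 29577 in siNC cells. The groups were well apart and each was tight. The mean was 31.0% higher in siELF5 cells, with a log2 fold change of 0.39 (SE 0.0336; adjusted p = 1.49e-06 in limma).

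CLDN12, a claudin that lacks the C-terminal motif by which most claudins bind ZO proteins, had 3982, 4288 and 3949 normalised reads in siELF5 cells, against 3359, 3291 and 3412 in siNC cells. All siELF5 libraries were higher than all siNC libraries. The mean was 21.4% higher in siELF5 cells, with a log2 fold change of 0.28 (SE 0.0435; adjusted p = 0.000197 in limma). In GENCODE 29, up to 5.5% of the exonic bases of CLDN12 are shared with another gene on the same strand.

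CLDN7, a claudin found along the lateral membrane as well as in the junction, had 6777, 6774 and 6680 normalised reads in siELF5 cells, against 5584, 5978 and 6337 in siNC cells. The siELF5 libraries were nearly equal, while the siNC libraries spread below them without overlap. The mean was 13.0% higher in siELF5 cells, with a log2 fold change of 0.18 (SE 0.0441; adjusted p = 0.00498 in limma). CLDN7 shares 10.8% of its exonic bases with a gene on the same strand and 1.53% with ELP5 on the opposite strand, and the library kit does not mark strand, so reads from these stretches cannot be assigned with certainty.

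CLDN4, the neighbour of CLDN3 on chromosome 7 and a barrier-forming claudin, had 16648, 16925 and 16356 normalised reads in siELF5 cells, against 16121, 17619 and 18797 in siNC cells. The siELF5 values fell inside the siNC range. The log2 fold change was -0.07 (SE 0.0462, 95% interval -0.17 to 0.03, limma adjusted p = 0.232). Without siNC replicate 1 it was -0.13 and passed the test (limma adjusted p = 0.00897, range 0.000373 to 0.751 over all 24 alternatives). The ratio of CLDN3 to CLDN4 normalised reads was 0.457, 0.502 and 0.348 in siELF5 libraries, against 0.0912, 0.126 and 0.155 in siNC libraries. After a correction for GC content, the ratio was 0.356, 0.370 and 0.289 in siELF5 libraries, against 0.132, 0.159 and 0.174 in siNC libraries. The groups did not overlap on either scale, and were closer together after the correction.

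LSR had 7269, 7164 and 6814 normalised reads in siELF5 cells, against 3460, 4146 and 4729 in siNC cells. All siELF5 libraries were higher, and siNC replicate 1 was again the lowest. The means were 7083 ± 238 in siELF5 cells and 4112 ± 635 in siNC cells (SD, n = 3 each), a ratio of 1.72. The log2 fold change was 0.80 (SE 0.0826, limma adjusted p = 7.46e-06).

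F11R had 34915, 33957 and 34109 normalised reads in siELF5 cells, against 33447, 32031 and 31610 in siNC cells. The groups did not overlap, but siELF5 replicate 2 was close to siNC replicate 1. The mean was 6.07% higher in siELF5 cells, with a log2 fold change of 0.09 (SE 0.0302; adjusted p = 0.0338 in limma). The call was lost without siELF5 replicate 1, siELF5 replicate 2, siNC replicate 2 or siNC replicate 3, where adjusted p was 0.118, 0.0518, 0.134 and 0.131 and the log2 fold change 0.07, 0.09, 0.08 and 0.07. In GENCODE 29, 36.6% of the exonic bases of F11R are shared with a read-through gene on the same strand, so its value is uncertain by an amount that was not measured. Whether that gene was in the annotation used for counting is not known.

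OCLN had 6313, 6419 and 5967 normalised reads in siELF5 cells, against 6510, 6762 and 6856 in siNC cells. The groups did not overlap, but the nearest libraries were close. The log2 fold change was -0.11 (SE 0.039, limma adjusted p = 0.0393). The call was lost without siELF5 replicate 1, siELF5 replicate 3, siNC replicate 2 or siNC replicate 3, with an adjusted p of 0.069, 0.119, 0.125 and 0.114 and a log2 fold change of -0.12, -0.08, -0.10 and -0.09. OCLN also has a near copy on chromosome 5, LOC647859, annotated in RefSeq as OCLNP1. That copy averaged 891 ± 40.4 normalised reads in siELF5 cells and 956 ± 26.7 in siNC cells (SD, n = 3 each), 14.3% of the OCLN value over all libraries, so reads may be split between the pair.

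TJP1 had 9590, 9130 and 9558 normalised reads in siELF5 cells, against 9924, 10090 and 9529 in siNC cells. The groups overlapped, with siNC replicate 3 below 2 siELF5 libraries. The log2 fold change was -0.06 (SE 0.0354, 95% interval -0.14 to 0.01, limma adjusted p = 0.164).

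High GC content moved with the groups across the whole table. A GC value was found for 15457 of 16032 genes tested (96.4%), including all 9 members, and these genes were ordered into 10 classes by GC. In the top class, 61.7% to 76.8% GC and 1546 genes, 960 genes were higher and 55 lower after ELF5 knockdown, with a median log2 fold change of 0.42. Classes 1 to 6 had medians of -0.04 to -0.05. CLDN3 and LSR were in the top class, CLDN7 in the ninth (median 0.11), CLDN4 in the eighth (median 0.01), and the other 5 members in the fifth class or below.

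The libraries differed in this respect within a group as well as between groups. The top class deviated from each gene's own mean by a median of 0.21, 0.25 and 0.20 (log2) in siELF5 replicates 1, 2 and 3, against -0.36, -0.19 and -0.06 in siNC replicates 1, 2 and 3. CLDN3 deviated by 0.97, 1.12 and 0.55 in siELF5 libraries, against -1.40, -0.81 and -0.42 in siNC libraries. LSR deviated by 0.44, 0.41 and 0.34 in siELF5 libraries, against -0.64, -0.37 and -0.18 in siNC libraries. In the siNC group both genes ranked the 3 libraries in the same order as their GC class did. CLDN1 deviated by 0.22, 0.24 and 0.13 in siELF5 libraries, against -0.24, -0.17 and -0.17 in siNC libraries, while the median of its own class stayed within 0.05 of 0 in every library.

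**Figure D2:**
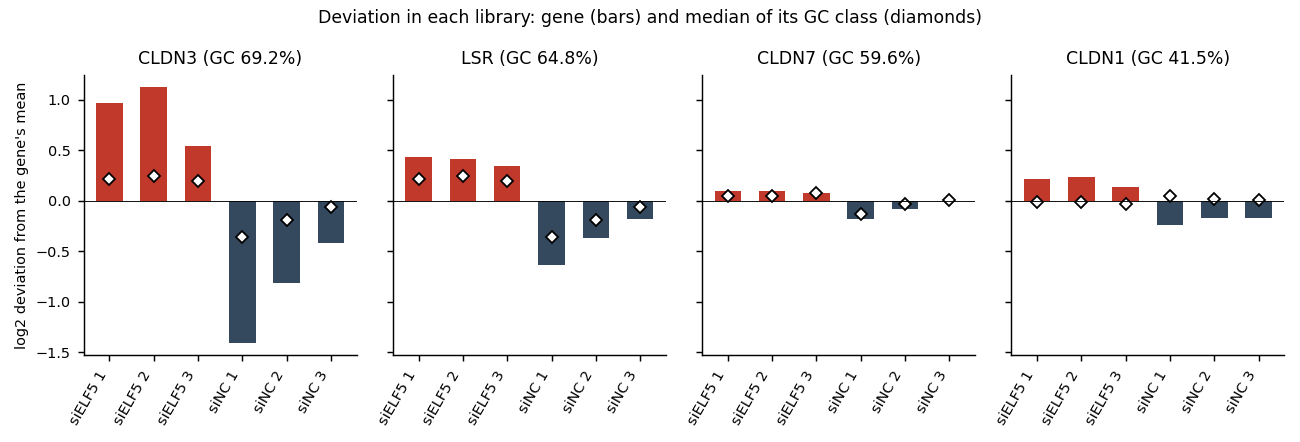
Log2 deviation of CLDN3, LSR, CLDN7 and CLDN1 from the gene's mean over 6 libraries (bars, y axis) in each library (x axis), with siELF5 in red and siNC in dark blue. Diamonds give the median deviation of all tested genes in the same GC class; they run with the bars for CLDN3, LSR and CLDN7 and stay near 0 for CLDN1.

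A GC curve fitted in each library and subtracted from the values changed the GC-rich members most. After this correction the median log2 fold change of the top class was 0.02, with 26.0% of its genes higher and 25.7% lower. CLDN3 kept a log2 fold change of 1.01 (SE 0.111; adjusted p = 1.95e-06 in limma), 0.74 less than before, and lay between 0.74 and 1.28 over 7 forms of the correction. LSR kept 0.36 (SE 0.0385, limma adjusted p = 1.59e-06), 0.44 less than before, and lay between 0.28 and 0.48. The range of the siNC libraries narrowed as well, to 0.54 after the correction against 0.99 before it (log2) for CLDN3, and to 0.14 against 0.45 for LSR.

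For CLDN7 the correction, made with the GC content of its longest transcript, ended the call. Its corrected log2 fold change was 0.06 (95% interval 0.00 to 0.13, limma adjusted p = 0.116), and it passed the test in 2 of 7 forms (adjusted p 0.0204 to 0.747). The form with the mean GC over transcripts gave 0.10 for CLDN7 and passed (limma adjusted p = 0.0204). A shorter transcript, CLDN7-201, has 56.0% GC, which lies in the range of the eighth class (median 0.01). A correction with that GC value was not tested. With the GC content of the longest transcript, a local quadratic curve gave 0.08 for CLDN7 and passed (limma adjusted p = 0.0392). The loss of the call thus depends on the curve as well as on the GC value used. CLDN4 gained a call: it was at -0.11 after the correction and passed the test (SE 0.0344, limma adjusted p = 0.0127), as it did in 6 of 7 forms (adjusted p 0.000373 to 0.123).

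The members of low GC content moved by 0.03 to 0.04 under the correction. CLDN1 stood at 0.43 (limma adjusted p = 1.39e-08), CLDN12 at 0.32 (5.49e-06) and F11R at 0.12 (0.000763), each a little higher than without it, and all passed in 7 of 7 forms. OCLN was at -0.07 and no longer passed (limma adjusted p = 0.123), in 0 of 7 forms. TJP1 was at -0.02 (95% interval -0.08 to 0.05, limma adjusted p = 0.644). In all, 6 of 9 members passed after the correction, 5 higher and 1 lower, against 48.3% of all genes, 23.1% higher and 25.2% lower.

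**Figure D3:**
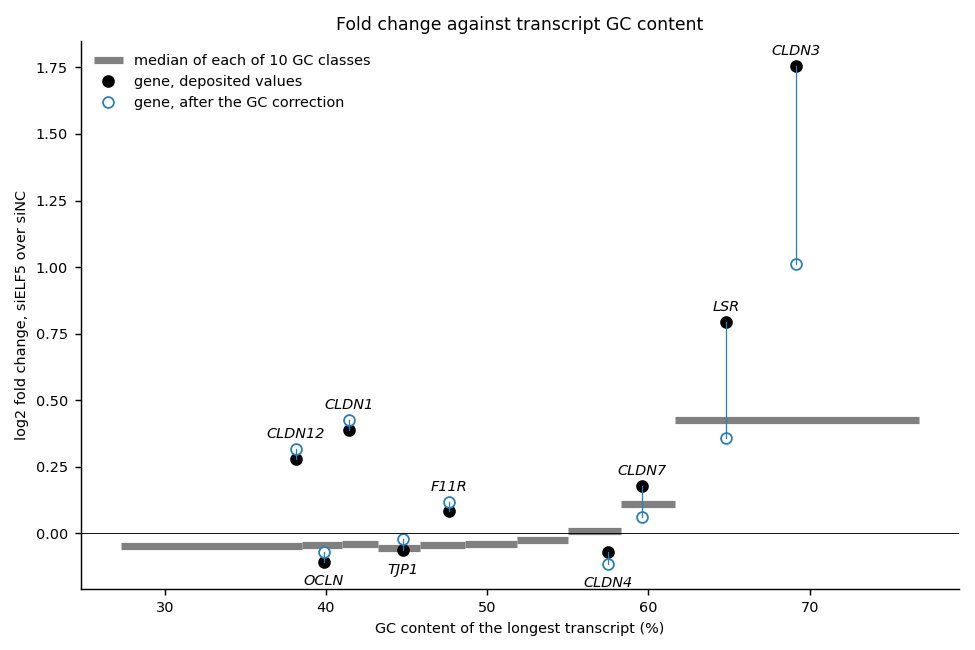
Log2 fold change of siELF5 over siNC (y axis) against GC content of the longest transcript in percent (x axis). Filled points are deposited values, open points the same genes after the GC correction, and grey bars the median of each of 10 GC classes; CLDN3 and LSR lie in the class with a median of 0.42, while CLDN1 and CLDN12 lie above classes with medians near -0.04.

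A stricter adjustment entered a GC score of each library into the fit as a covariate. The score was the median deviation of the top GC class minus that of the fifth class, and it was 0.221, 0.275 and 0.221 in siELF5 libraries, against -0.394, -0.219 and -0.0704 in siNC libraries. Since the groups did not overlap in the score, its effect and that of the siRNA cannot be fully told apart, and the median SE over all genes was 0.1504 with the covariate and 0.0634 without it. In this fit 2 of 9 members passed, 1 higher and 1 lower, against 7.24% of all genes, 3.23% higher and 4% lower: CLDN1 was higher at 0.28 (limma adjusted p = 0.0421) and CLDN4 lower at -0.39 (limma adjusted p = 0.00293). CLDN3 was at 0.26 (95% interval -0.16 to 0.68, limma adjusted p = 0.508) and LSR at 0.16 (95% interval -0.05 to 0.37, limma adjusted p = 0.394). CLDN12 was at 0.22 (0.281), F11R at 0.21 (0.0988) and OCLN at -0.23 (0.162), with the limma adjusted p in brackets. CLDN7 and TJP1 changed sign, to -0.08 and 0.04, and did not pass (limma adjusted p = 0.684 and 0.872).

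**Figure D4:**
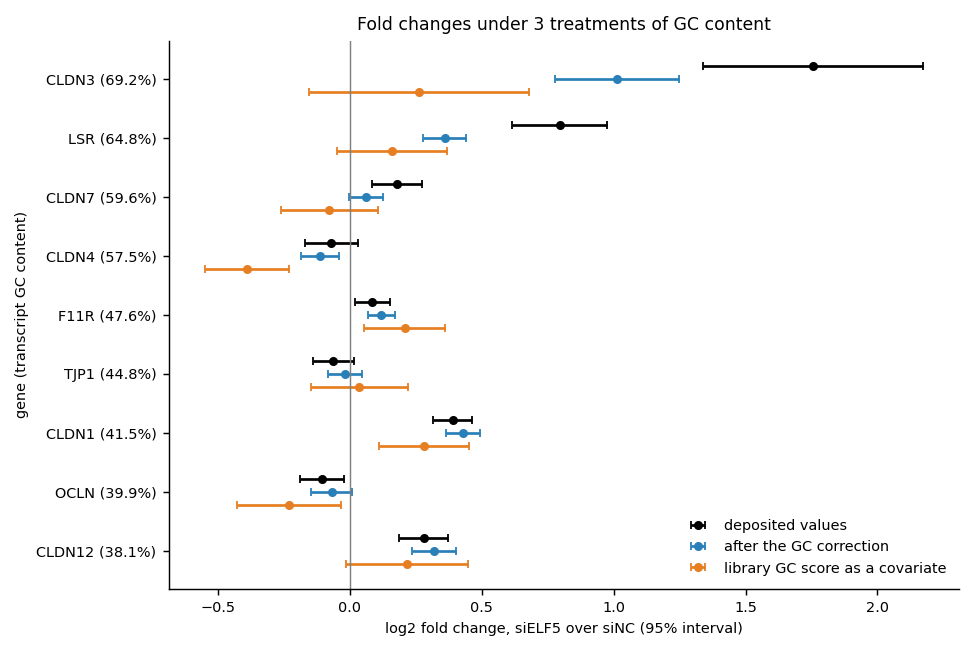
Log2 fold change of siELF5 over siNC (x axis) for the 9 genes ordered from high to low transcript GC content (y axis), from deposited values (black), after the GC correction (blue) and with a library GC score in the fit (orange). Bars are 95% intervals, not adjusted over genes; CLDN3 and LSR move furthest between the 3 treatments, and CLDN1 stays right of 0 in all of them.

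Claudin levels can be compared only per length of transcript. The levels per kilobase given here, and the shares drawn from them, were not corrected for GC content. Per kilobase of the longest transcript, CLDN1 stood at 10983 ± 414 normalised reads in siELF5 cells and 8382 ± 210 in siNC cells (SD, n = 3 each). F11R followed at 7100 ± 107 in siELF5 cells and 6693 ± 199 in siNC cells. CLDN3 came next in siELF5 cells at 5701 ± 1126, and its level was 1729 ± 570 in siNC cells. In siELF5 cells it was above CLDN4, at 3998 ± 68.3, and in siNC cells below CLDN4, at 4207 ± 322. The place of CLDN4 depends on its annotation: per kilobase of the shorter transcript CLDN4-201 it was at 9090 ± 155 in siELF5 cells and 9565 ± 732 in siNC cells, above CLDN3 in both.

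The other members had lower levels per kilobase of the longest transcript, except that CLDN7 was above CLDN3 in siNC cells. Their places depend on annotation too. CLDN7-201 has 1542 bases, against 1923 in the longest CLDN7 transcript, and TJP1-202 has 6747, against 7950 in the longest TJP1 transcript. Levels with these shorter lengths were not computed. CLDN7 was at 3507 ± 28.7 in siELF5 cells and 3103 ± 196 in siNC cells, and LSR at 2856 ± 96.1 in siELF5 cells and 1658 ± 256 in siNC cells. LSR and CLDN3 overlapped in their library ranges in siNC cells, at 1395 to 1907 and 1154 to 2293, and were apart in siELF5 cells. TJP1, CLDN12 and OCLN closed the order in both groups, at 968 to 1186 on average in siELF5 cells and 941 to 1239 in siNC cells. TJP1 and CLDN12 overlapped in siELF5 cells, at 1148 to 1206 and 1108 to 1203, and did not in siNC cells. OCLN was below CLDN12 in siELF5 cells, at 927 to 997, and above it in siNC cells, at 1011 to 1065 against 923 to 957 for CLDN12.

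The 5 member claudins made up 96.6% to 97.2% of the signal per kilobase of all 24 claudin genes in the table, in every library. Of the signal of all 24 claudin genes, CLDN3 held 21.7% ± 3.001 in siELF5 cells and 8.99% ± 2.40 in siNC cells (SD, n = 3 each). After the GC correction, CLDN3 averaged 5547 ± 860 normalised reads in siELF5 cells and 2756 ± 505 in siNC cells. CLDN4 held 15.4% ± 0.745 in siELF5 cells and 22.1% ± 0.193 in siNC cells, and CLDN7 13.5% ± 0.773 in siELF5 cells and 16.3% ± 0.135 in siNC cells. CLDN1 was the most abundant in both, with 42.1% ± 1.14 in siELF5 cells and 44.2% ± 2.08 in siNC cells. The CLDN1 shares overlapped between the groups, at 41.1% to 43.3% in siELF5 libraries and 42.1% to 46.2% in siNC libraries. The lower mean shares of CLDN1 and CLDN7 in siELF5 cells are not lower levels, since their mean reads were 31.0% and 13.0% higher there. With CLDN4-201 as the length of CLDN4, CLDN4 held 29.2% ± 1.18 in siELF5 cells and 39.3% ± 0.267 in siNC cells, and exceeded CLDN1 in siNC cells only. On that length CLDN1 held 35.2% ± 0.684 in siELF5 cells and 34.5% ± 1.68 in siNC cells, so its mean share was no longer lower in siELF5 cells.

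The other claudins were low, and about as many passed as over all genes. Of 18 other claudin genes listed, which leave out CLDN34, 3 had no read in any library and 11 were tested; 5 of these passed higher, 0 lower and 6 did not pass, against 47.1% of all genes called, 23.8% higher and 23.3% lower. CLDN23 averaged 242 ± 20.1 normalised reads in siELF5 cells and 118 ± 29.9 in siNC cells (SD, n = 3 each), a log2 fold change of 1.05 (limma adjusted p = 0.000286). CLDN15, a claudin that forms sodium channels in the gut, averaged 489 ± 10.6 in siELF5 cells and 347 ± 50.003 in siNC cells, at 0.50 (limma adjusted p = 0.00192). CLDN5, the main claudin of brain endothelium, averaged 67.0 ± 11.8 in siELF5 cells and 30.5 ± 5.34 in siNC cells, at 1.11 (limma adjusted p = 0.00298). After the GC correction 5 passed higher again, and 1 did once the GC score was in the fit.

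Of 10 other membrane proteins of the junction 8 were tested; 3 passed higher, 1 lower and 4 did not pass, which is near the 47.1% called over all genes. CXADR, an adhesion protein related to JAM-A, averaged 7509 ± 439 normalised reads in siELF5 cells and 5852 ± 75.9 in siNC cells (SD, n = 3 each), with a log2 fold change of 0.36 (limma adjusted p = 2.33e-05), 0.39 after the GC correction. CRB3, a determinant of the apical membrane, was at 0.59 (limma adjusted p = 0.00026) and 0.41 after the correction. ILDR1, a relative of LSR at contacts of 3 cells, was at 0.34 (limma adjusted p = 0.00307). ESAM, an endothelial adhesion molecule, was lower at -0.34 (limma adjusted p = 0.0265).

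Among plaque and scaffold proteins, which lie with ZO-1 under the membrane, 3 of 17 passed higher, 8 lower and 6 did not pass, against 23.8% higher and 23.3% lower over all genes. The counts were the same after the GC correction, and with the GC score in the fit they were 0 higher, 3 lower and 14 not passed. AMOTL1, an angiomotin family scaffold, averaged 670 ± 11.6 normalised reads in siELF5 cells and 1502 ± 54.2 in siNC cells (SD, n = 3 each), with a log2 fold change of -1.16 (limma adjusted p = 1.97e-08). USP53, which is associated with ZO proteins, averaged 4917 ± 56.4 in siELF5 cells and 7666 ± 147 in siNC cells, at -0.64 (limma adjusted p = 2.44e-08). MPDZ, a scaffold with many PDZ domains, was at -0.35 (limma adjusted p = 1.63e-05), and ARHGEF11, a guanine nucleotide exchange factor, at -0.30 (limma adjusted p = 7.03e-05). With the GC score as a covariate AMOTL1 stood at -1.18 and USP53 at -0.62, and both passed (limma adjusted p = 0.000141 and 0.000227).

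Of 7 surface proteins and proteases that act on claudins, 3 passed higher, 2 lower and 2 did not pass. SPINT1, an inhibitor of the protease matriptase, fell with a log2 fold change of -0.25 (limma adjusted p = 1.76e-05), and the related inhibitor SPINT2 rose by 0.24 (limma adjusted p = 0.00014). EPHA2, a receptor kinase, was at 0.55 (limma adjusted p = 0.000546). ST14, which encodes matriptase and has 62.8% GC, was at 0.26 (limma adjusted p = 0.000864) and at -0.04 after the GC correction, where it did not pass (limma adjusted p = 0.171). The median log2 fold change was 0.46 over the other claudins tested, 0.02 over the other membrane proteins, -0.14 over the plaque and scaffold proteins and 0.06 over these surface proteins and proteases, against 0.00 over all genes. After the GC correction these medians were 0.05, 0.05, -0.09 and -0.04 in the same order, against -0.01 over all genes. Over the 4 lists, 43 of 52 genes were tested and 14 passed higher and 11 lower, where 47.1% of all genes were called. After the GC correction 13 passed higher and 12 lower, where 48.3% of all genes were called, and with the GC score in the fit 2 passed higher and 3 lower, where 7.24% were called.

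**Figure D5:**
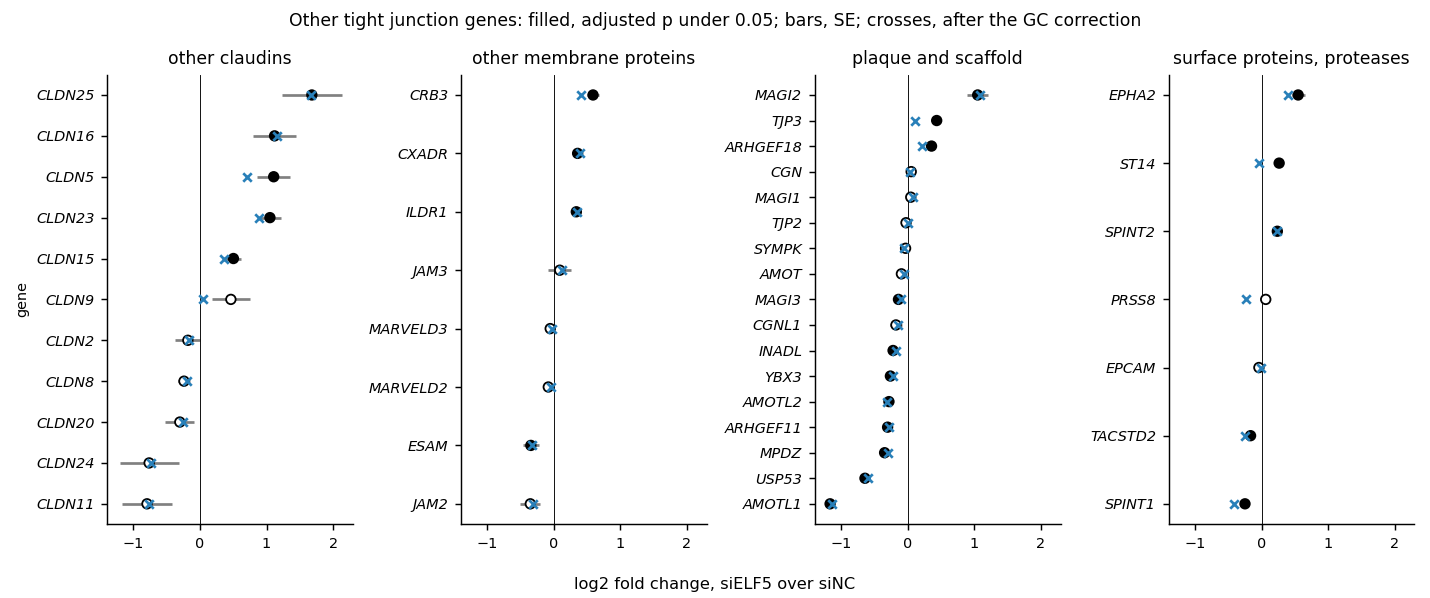
Log2 fold change of siELF5 over siNC (x axis) for the tested genes of 4 lists of other tight junction genes (y axis). Filled points passed at a limma adjusted p under 0.05, open points did not, bars are SE and crosses are values after the GC correction; the plaque and scaffold list has AMOTL1 and USP53 at its low end, and the other claudins have CLDN25 and CLDN16 at the high end.

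The genes most like each member were found by the distance between their log2 deviations over the 6 libraries, among 9200 candidates with a mean of at least 1000 normalised reads. For CLDN3 these were ABHD17A and PITX1, at 65.4% and 68.9% GC, with log2 fold changes of 1.70 and 1.89. For LSR they were INF2 and WDR18, at 63.3% and 65.9% GC, with 0.82 and 0.76. These neighbours of CLDN3 and LSR were GC-rich as well. Profiles not corrected for GC content were used to choose them, so their similar fold changes follow from the choice. For CLDN1 they were VGLL4 and SFT2D1, at 52.1% and 41.3% GC, and for CLDN12 SAP30 and COX11, at 51.8% and 47.01% GC. CLDN4 was nearest to PACSIN1 and VPS37B, CLDN7 to ACTG1 and CRAT, OCLN to NR2F2 and KLHL5, F11R to MCCC1 and MAN2A1, and TJP1 to RFWD3 and NOB1.

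The libraries had a luminal epithelial profile, which does not tell T47D from other luminal lines: all 9 of the list were tested and had at least 14004 normalised reads in every library. Summed, they ranged from 677548 to 700684 in siELF5 libraries and from 731642 to 778670 in siNC libraries. Of the 9, 4 passed higher, among them ESR1 at 0.45, and 2 lower, KRT8 at -0.41 and KRT18 at -0.45. Over all genes, 23.8% passed higher and 23.3% lower. After the GC correction 5 of the 9 passed higher and 3 lower, against 23.1% and 25.2% of all genes. With the GC score in the fit 1 passed higher and 2 lower, against 3.23% and 4% of all genes. The defining markers of other cell types were at or near 0, with KRT5 at most 16.4, PTPRC at most 3.04, PECAM1 at most 2.02 and PDGFRB at most 4.6 normalised reads in any library. The summed endothelial list was 12.3 to 14.5 in siELF5 libraries and 30.4 to 39.7 in siNC libraries, almost all of it VWF. The basal list summed to 1029 to 1052 in siELF5 libraries and 979 to 1067 in siNC libraries, and the fibroblast list to 9397 to 10003 in siELF5 libraries and 9714 to 10625 in siNC libraries, mostly FN1 and COL1A1.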

How the data were processed

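Per the submitters' processing notes, STAR 2.6, featureCounts 1.6.3 and DESeq2 1.22.1 were used with build hg19; no source used here gives the counting options. Per the labels, libraries came from a TruSeq v2 kit, which does not mark strand. The authors deposited a signal value per gene and library, a gene count divided by a size factor; dividing by the value of 1 read gave whole reads, within 1e-06, for 100% of values. The authors' deposited table also holds log2 fold changes and p-values, used for the comparison of calls. Intervals around limma estimates cover the spread between libraries.

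The 9 genes and all gene lists were chosen with earlier results of these data known. Genes with a mean of at least 10 were tested on log2(value + 1) with limma 3.58.1 (R 4.3.3, intensity trend, two-sided, Benjamini-Hochberg over all 16032 genes, threshold 0.05). Fold changes on this scale understate changes of low genes. GC content came from the longest GENCODE 29 transcript, matched by symbol; no coordinates were carried between builds. The GC correction subtracted a robust loess curve (span 0.3) of each library's deviations on GC. edgeR 4.0.16 and DESeq2 1.42.0 on the recovered reads were alternatives: they called 7578 and 7292 genes. In data simulated for siELF5 against siNC over 16032 genes, limma recovered 41.2%, 71.2% and 89.4% of changed genes at absolute log2 folds of 0.25, 0.5 and 1. Of 143 genes called there, 9 were false calls. The simulation changed only 200 genes and held no GC effect for these rates, whereas 47.1% of genes were called in the data. The rates therefore do not give the power of the comparison made here. Within groups, replicates differed by more than sampling noise (chi-square per degree of freedom 4.26 to 11.4). Named genes were all members, ELF5, EHF, up to 4 genes per list with the smallest adjusted p among those that passed, and the 2 genes most like each member; markers and other genes were named after their values were seen. The summed level of 1 marker list is not reported here.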

Additional observations from a re-analysis of the deposited data

How the results depend on the processing

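Over 24 alternatives, CLDN1 passed in 24, and CLDN3, LSR and CLDN12 in 23, all but the fit with the library GC score; TJP1 passed in 0. Entering the GC score of each library gave 1160 called genes in place of 7559, 2 members in place of 7 and 5 other tight junction genes in place of 25, and reversed CLDN7, at -0.0782, and TJP1, at 0.0355; the cause was not tested. OCLN was lost in 16 alternatives, among them scaling to equal totals (log2 fold change -0.07, limma adjusted p = 0.122) and quantile scaling (-0.07, adjusted p = 0.137). With no intensity trend both OCLN (-0.11, adjusted p = 0.109) and F11R (0.09, adjusted p = 0.121), which was lost in 6, kept their fold changes. Leaving out each library in turn gave 6164 to 7312 genes, 5 to 8 members and 23 to 25 other tight junction genes. The labels do not say that the replicate numbers pair the libraries. Correlations of same-numbered deviations were 0.0146, -0.0345 and -0.0560, which cannot decide whether such libraries were prepared together. A replicate block gave 7174 genes and ended the call of OCLN at the same fold change (limma adjusted p = 0.0615). Together with the GC correction the block gave 7502 genes. The GC-offset edgeR fit, the least-squares curve and the local quadratic curve were chosen after seeing the data. With 3 libraries a group, the smallest p of an exact permutation test is 0.1, so single genes rest on the fit over all genes.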

Other observations

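In the promoter windows of RefSeq (GRCh38.p14, 250 bases before the start), the ETS core GGAA was counted on either strand. CLDN1 held 1 match, CLDN3 held 3, CLDN4 held 2, CLDN12 held 4 and LSR held 5, and the windows of OCLN, CLDN7 and TJP1, which have more than 1 start each, held 1 to 5. No count is given for F11R. The windows of CLDN4 and LSR, a window of OCLN and a window of CLDN7 lie wholly within exons annotated in GENCODE 29. Over all 35116 windows 92.7% held at least 1 match, with a median of 3, so these counts are near the background. The 3′ untranslated regions of the 9 members held 0 genes with CACTAAC or ACTAACA, searched in the transcript's own strand, against 12.01% of 13901 tested genes with such a region; these overlapping motifs came from an earlier search of the same data.

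CLDN16 and CLDN25, chosen after their values were seen, had the highest fold changes of the other claudins at low levels. CLDN25 had 41.7, 29.4 and 30.8 normalised reads in siELF5 libraries, against 8.05, 5.53 and 20.2 in siNC libraries, a log2 fold change of 1.68 (limma adjusted p = 0.0078). CLDN16 averaged 123 ± 24.0 in siELF5 cells and 60.6 ± 27.9 in siNC cells (SD, n = 3 each), at 1.12 (limma adjusted p = 0.0133).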
